A study of Schizosaccharomyces pombe with 3 samples.

Results

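Intergenic long non-coding RNA (lncRNA) genes of the fission yeast Schizosaccharomyces pombe were examined for RNA polymerase II (Pol II) and for Med7, a subunit of the Mediator complex, by chromatin immunoprecipitation and sequencing (ChIP-seq). Members were the genes annotated as lncRNA in the reference assembly ASM294v3 that were at least 300 bp long, overlapped no protein-coding transcript on either strand and lay outside the centromeres. Of 12606 annotated nuclear genes, 7133 were lncRNA genes, 1585 of these overlapped no coding transcript, 1189 were also long enough, and 1083 remained outside the centromeres. No measured value entered this choice. The 3 libraries, 1 per group, were Pol II chromatin (untagged strain, CTD(4H8) antibody to the C-terminal domain of Pol II, Protein G beads), Med7 chromatin (cells carrying a TAP tag on Med7, IgG beads) and a bead control (untagged strain, beads, no antibody). All were of strain 972 h- in log phase in YEA medium with 2% glucose. The study's title concerns Mediator and the incorporation of the centromeric histone CENP-A, so the lncRNA genes are background to its stated question. No library of untagged cells on IgG beads was analysed here, so binding through Med7 and retention on IgG beads cannot be told apart.

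In fission yeast, Pol II transcribes much of the genome outside the coding genes, and many of the resulting RNAs are degraded in the nucleus by the exosome. Some of these transcripts hold down a neighbouring gene by being transcribed through its promoter, and others bind the meiotic RNA-elimination factor Mmi1. Mediator joins gene-specific transcription factors to Pol II at promoters, and it is expected at the start of a Pol II gene rather than along its body.

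Members had a median length of 545 bp, and the longest was SPNCRNA.1164 at 5123 bp. They were spread as 442, 429 and 212 genes over chromosomes I, II and III. Because 432 of them overlapped another member, the 1083 genes formed 856 separate loci, and overlapping members share reads. In all, 732 members overlapped some other annotated gene, among them 13 that overlapped a tRNA gene, 5 a small nucleolar RNA gene and 1 a small nuclear RNA gene.

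The windows around the starts of 5 members are printed first, because these members carry some of the highest Pol II values (SPNCRNA.2467, mrp1 and mamRNA) or Med7 values (SPNCRNA.4566 and SPNCRNA.311) described here. Each sequence is the strand of the gene in assembly ASM294v3, from 250 bases before its annotated start to 50 bases after it. Capitals mark matches, on either strand, to motifs searched by their letters. TATAAA stood for the TATA box. The CRE, which the stress factor Atf1 binds, was searched as ATGACGT. The core of the HomolD box, known from ribosomal protein promoters, was searched as CAGTCAC. The FLEX element of forkhead factors was searched by its core GTAAACA. The TR box of the mating regulator Ste11 was searched by its core TTCTTTG. The windows lie at chrII:1307431-1307730 for mamRNA, chrI:1234201-1234500 for mrp1, chrI:1076491-1076790 for SPNCRNA.2467, chrII:113288-113587 for SPNCRNA.4566 and chrI:4471406-4471705 for SPNCRNA.311, all on the plus strand.
mamRNA: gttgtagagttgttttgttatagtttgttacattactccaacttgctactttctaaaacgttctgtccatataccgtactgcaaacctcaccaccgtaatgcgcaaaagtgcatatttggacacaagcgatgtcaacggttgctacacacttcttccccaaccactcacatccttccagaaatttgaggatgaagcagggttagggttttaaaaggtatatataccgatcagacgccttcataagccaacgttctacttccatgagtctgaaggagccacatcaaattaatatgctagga
mrp1: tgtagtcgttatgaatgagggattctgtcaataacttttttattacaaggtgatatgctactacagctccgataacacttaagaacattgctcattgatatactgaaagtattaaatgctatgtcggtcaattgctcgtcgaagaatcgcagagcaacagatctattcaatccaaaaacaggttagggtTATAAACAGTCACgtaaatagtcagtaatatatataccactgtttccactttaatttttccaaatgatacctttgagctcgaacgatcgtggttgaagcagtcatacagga
SPNCRNA.2467: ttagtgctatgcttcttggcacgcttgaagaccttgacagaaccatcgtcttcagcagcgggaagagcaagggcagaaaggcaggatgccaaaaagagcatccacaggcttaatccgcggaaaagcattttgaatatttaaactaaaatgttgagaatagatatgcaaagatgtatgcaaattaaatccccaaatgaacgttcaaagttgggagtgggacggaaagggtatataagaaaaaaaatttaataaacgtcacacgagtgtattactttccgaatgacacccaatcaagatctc
SPNCRNA.4566: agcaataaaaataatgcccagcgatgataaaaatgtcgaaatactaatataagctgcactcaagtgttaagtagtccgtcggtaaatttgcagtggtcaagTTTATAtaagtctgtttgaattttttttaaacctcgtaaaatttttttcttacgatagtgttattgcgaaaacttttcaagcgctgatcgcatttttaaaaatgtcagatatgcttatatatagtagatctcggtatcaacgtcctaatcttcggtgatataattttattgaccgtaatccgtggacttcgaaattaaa
SPNCRNA.311: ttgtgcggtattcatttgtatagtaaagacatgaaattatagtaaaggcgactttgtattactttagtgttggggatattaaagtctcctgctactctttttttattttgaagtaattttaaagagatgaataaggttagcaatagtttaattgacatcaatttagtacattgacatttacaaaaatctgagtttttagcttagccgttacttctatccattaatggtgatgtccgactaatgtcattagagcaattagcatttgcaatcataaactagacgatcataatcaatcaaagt

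In mrp1 a TATA box match beginning 61 bases before the start was followed directly by a HomolD core match beginning 55 bases before it. SPNCRNA.4566 held 1 TATA box match, on the other strand, beginning 149 bases before its start. The windows of mamRNA, SPNCRNA.2467 and SPNCRNA.311 held none of these letters, which says nothing about the factors. Over all members, 50.6% of the 300-base windows held TATAAA, against 48.1% of the 5112 coding windows of that length. The HomolD core stood in 3.23% of member windows and 4.71% of coding windows, the TR box core in 10.4% of members and 9.94% of coding genes, the FLEX core in 14.8% and 16.5%, and the CRE in 1.85% and 1.55%.

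Reads were counted in each gene body and in the 200 bp before its start, and a fold is the ratio of the RPM (reads scaled to a depth of 1000000 nuclear reads) of a ChIP library to that of the control. After the ribosomal DNA at the ends of chromosome III was left out, there were 1687058 nuclear reads for Pol II, 696101 for Med7 and 630825 for the control. A window was measured when the 2 libraries compared held at least 20 reads together and at least 90% of its positions were unique. A gene was called high at 2-fold or more with its 95% interval above 1, and low at 0.5-fold or less with its interval below 1. Intervals are exact conditional binomial and cover counting error only, since each group has 1 library. Duplicate reads were kept, and PCR copies are not separate molecules, so the intervals can be too narrow even for counting error. A group of 1 library allows no test and no replicate check, so each fold compares libraries and not conditions.

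The Pol II fold was below 1 over most intergenic lncRNA bodies, and a small group of members stood far above the rest. Of 990 measured members, 26 (2.63%) were high and 275 (27.8%) were low, where all annotated genes of at least 300 bp gave 5.62% high and 15.5% low. The median log2 fold was -0.69 in members, -0.45 in coding genes, -0.50 in lncRNA genes over coding transcripts and -0.53 in 1167 measured stretches with no annotated gene. Summed over the 994 members with unique bodies, RPM per kb were 52.3 for Pol II and 68.7 for the control, a pooled fold of 0.761 (0.751 to 0.772) in which overlapping members count their shared reads each. The low calls depend on the scaling. When libraries were scaled to the median 1 kb bin in place of total reads, every Pol II fold moved up by the same factor, 64 members were high and 70 low, and the member median was -0.19. The order of the set medians does not depend on that factor. The other 93 members had too few unique positions (89) or too few reads (4).

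**Figure D1:**
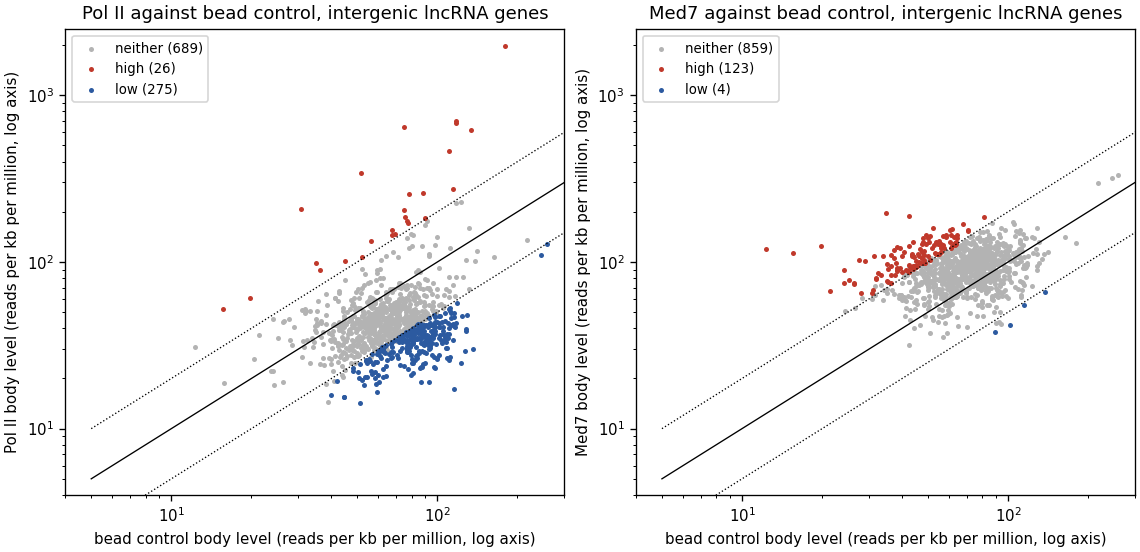
Body level of each measured intergenic lncRNA gene (points) in the Pol II library (left) and the Med7 library (right) against the bead control, in RPM per kb on log axes. The solid line marks equal levels and the dotted lines 2-fold and 0.5-fold. Most Pol II points lie under the solid line with 26 high above it, and most Med7 points lie on or above it with 123 high.

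SPNCRNA.2467, on the plus strand at chrI:1076741-1077534, had the highest Pol II value, 1990 RPM per kb for Pol II, 130.0 for Med7 and 180.0 for the control. That was 2664 Pol II reads and 90 control reads, 11.1-fold (8.97 to 13.8). The gene starts 47 bp from the start of the divergent coding gene plb1, a phospholipase gene, which was itself at 14.3-fold. In 200 bp segments the Pol II fold was 9.62 and 10.7 before the annotated start, 15.5 in the first segment of the body and 5.31 in the last, so no segment separated the gene from its neighbour. With duplicate reads collapsed the fold was 5.68.

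SPNCRNA.3598 had 649.0 RPM per kb for Pol II, 99.6 for Med7 and 74.9 for the control, 8.66-fold for Pol II (6.85 to 11.1). The signal covered its whole body of 1544 bp, with segments between 4.97-fold and 13.3-fold. It was not confined to the body. The second 200 bp segment before the annotated start had 212 Pol II and 5 control reads, 15.9-fold (6.69 to 49.3), and the first 2.99-fold. The coding neighbours of SPNCRNA.3598 were also high, csx1 (an RNA-binding protein of the stress response) at 4.65-fold 1032 bp away, and SPAC17A2.10C at 3.88-fold 73 bp past its end.

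mamRNA, a lncRNA known to bind Mmi1 and its partner Mei2, stood alone between coding genes without high Pol II. Its longer record (SPNCRNA.1715.1, chrII:1307681-1308359, plus strand) had 702.0 RPM per kb in Pol II, 93.1 in Med7 and 117.0 in the control. Pol II was thus at 6.01-fold (4.52 to 8.17) and Med7 at 0.797-fold (0.519 to 1.22). Its nearest coding genes, ldb1 at 0.504-fold and sol1 at 0.837-fold, were 1633 bp and 712 bp away. Pol II differed between the 2 sides of the annotated start: the second 200 bp segment before it had 11 Pol II reads and 4 control reads, 1.03-fold, and the first 200 bp of the body had 192 and 14, 5.13-fold. In the 200 bp just before the start there were 53 Pol II, 11 Med7 and 1 control read, 19.8-fold for Pol II (3.41 to 797.0) and 9.97-fold for Med7 (1.45 to 429.0). For Med7 this window was under the minimum of 20 reads, so it does not count as measured. The second record, SPNCRNA.1715.2, shares that start and most of those reads and was at 5.8-fold.

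mrp1 encodes the RNA of RNase MRP, the enzyme that processes ribosomal RNA precursors. It had 343.0 RPM per kb for Pol II, 46.8 for Med7 and 51.6 for the control, 6.64-fold for Pol II (3.81 to 12.7) and 0.906-fold for Med7. Neither flanking coding gene was high, at 0.514-fold and 0.374-fold. SPNCRNA.2541, antisense to mrp1 and also over the small nucleolar RNA gene snoZ16, was at 3.28-fold and shares part of these reads. Strand is not kept in ChIP reads, so overlapping genes cannot be told apart.

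The remaining members among the 10 highest were mostly beside or over other transcribed genes. SPNCRNA.6754 had 325 Pol II, 42 Med7 and 18 control reads, 6.75-fold for Pol II and 2.11-fold for Med7, and lay 287 bp from the start of ght8, a hexose transporter gene at 9.89-fold. SPNCRNA.5104 had 333 Pol II and 27 control reads, 4.61-fold, 200 bp from the start of but2 at 6.76-fold. SPNCRNA.6024 had 479 Pol II and 43 control reads, 4.17-fold, and overlapped snu5, the U5 spliceosomal RNA gene. Its segments went no higher than 1.58-fold outside the annotated body and reached 5.91-fold within it. SPNCRNA.398 had only 27 Pol II and 3 control reads, 3.37-fold (1.04 to 17.3).

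**Figure D2:**
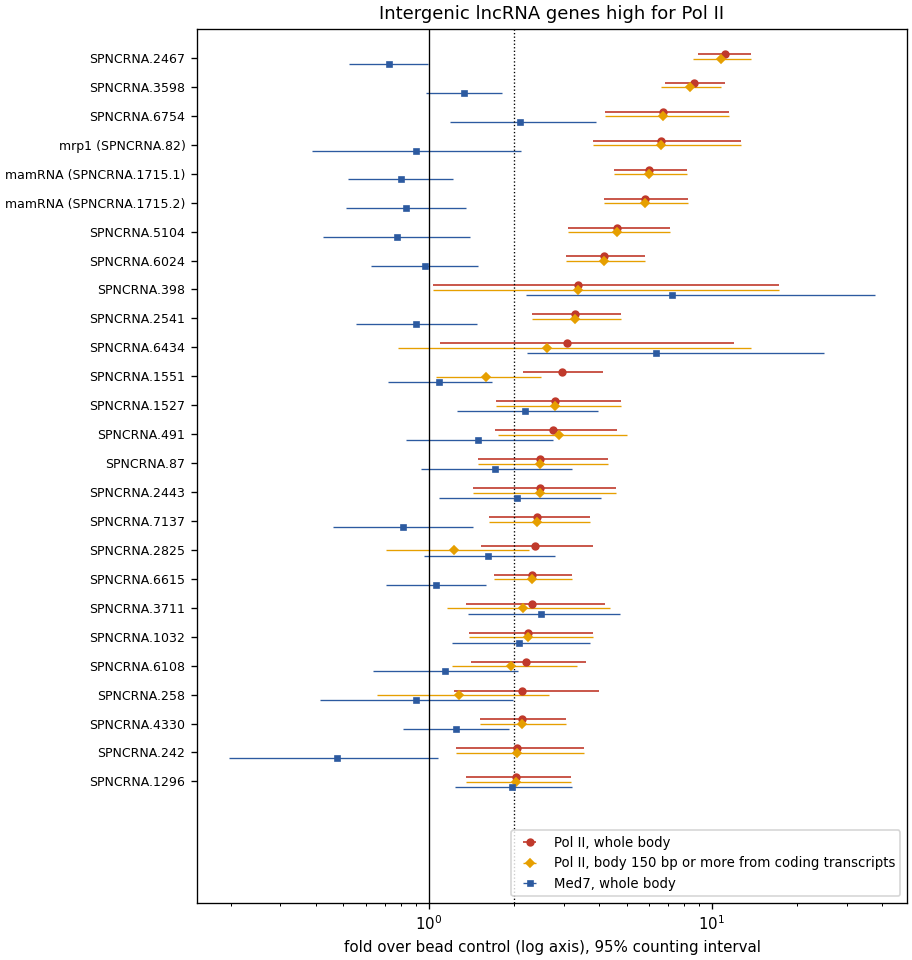
Fold over bead control, on a log axis with 95% counting intervals, for the 26 members called high for Pol II. Circles show Pol II over the whole body, diamonds Pol II over the body 150 bp or more from any coding transcript and squares Med7 over the whole body. SPNCRNA.1551, SPNCRNA.2825, SPNCRNA.258 and, at 1.96-fold, SPNCRNA.6108 fall below 2-fold when positions near coding transcripts are left out. SPNCRNA.6434 stays above 2-fold, but its interval then reaches below 1. mamRNA and mrp1 have no position that near, so their values are the same by construction.

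The 26 high members formed 24 loci. In 12 of the members the nearest coding gene on at least 1 side, at whatever distance, was itself at 2-fold or more, 4 others overlapped a small nuclear or small nucleolar RNA gene, and 10 had neither: mrp1, both mamRNA records, SPNCRNA.87, SPNCRNA.242, SPNCRNA.398, SPNCRNA.491, SPNCRNA.1032, SPNCRNA.1296 and SPNCRNA.6434. Among the 265 measured members beside a coding gene at 2-fold or more, 4.53% were high, against 1.93% of the other 725. Of the 18 measured members over a tRNA, small nuclear or small nucleolar RNA gene, 22.2% were high, against 2.26% of the other 972. These were the same 4, over small nuclear or small nucleolar RNA genes and not over tRNA genes. Among all members, 13 overlapped a tRNA gene, 5 a small nucleolar RNA gene and 1 a small nuclear RNA gene. When the 150 bp nearest coding transcripts were left out, SPNCRNA.1551, which begins 31 bp past the end of the glycolytic gene tdh1 at 12.7-fold, was at 1.60-fold in place of 2.95-fold. SPNCRNA.2825, whose end faces that of the cell wall gene psu1 at 27 bp, was likewise at 1.23-fold in place of 2.37-fold. SPNCRNA.258, 47 bp past the ribosomal protein gene rpl31, was at 1.28-fold in place of 2.14-fold. SPNCRNA.6434, with 33 Pol II and 4 control reads, ended 60 bp before puf1, which was just under the cut at 1.93-fold. With those positions left out SPNCRNA.6434 was at 2.62-fold (0.782 to 13.7) in place of 3.08-fold, and so no longer called high.

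The lower-ranked high members fell into the same kinds. SPNCRNA.1527 had 142 Pol II, 46 Med7 and 19 control reads, 2.79-fold for Pol II and 2.19-fold for Med7. It ended 154 bp before gas2, a cell wall glucanosyltransferase gene on the same strand at 9.82-fold. SPNCRNA.1527 and SPNCRNA.1551 are each annotated as a possible alternative untranslated region, so they may not be separate genes. SPNCRNA.3711 (2.31-fold) began 109 bp past the end of pyk1, the pyruvate kinase gene at 6.93-fold, and SPNCRNA.2443 (2.47-fold) lay 432 bp from the start of the superoxide dismutase gene sod1 at 2.41-fold. SPNCRNA.6615 had 291 Pol II, 55 Med7 and 47 control reads, 2.32-fold, overlapped the lncRNA gene prt2 and lay 475 bp from the phosphate transporter gene pho84 at 3.44-fold. SPNCRNA.4330 (2.13-fold) was farther from its high neighbour, 1414 bp from the phosphatase gene pyp1 at 2.92-fold. Away from high coding genes, SPNCRNA.1032 had 120 Pol II, 46 Med7 and 20 control reads, 2.24-fold for Pol II and 2.08-fold for Med7, and SPNCRNA.1296 had 153, 61 and 28, 2.04-fold and 1.97-fold. The 7 members high in both libraries were SPNCRNA.398, SPNCRNA.1032, SPNCRNA.1527, SPNCRNA.2443, SPNCRNA.3711, SPNCRNA.6434 and SPNCRNA.6754.

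HomolD core matches stood in the start windows of 5 of the 26 high members, SPNCRNA.242, SPNCRNA.491, SPNCRNA.7137, mrp1 and SPNCRNA.87, which is 19.2% beside the 3.23% of all members. SPNCRNA.87 had 119 Pol II and 18 control reads, 2.47-fold, SPNCRNA.491 had 147 and 20, 2.75-fold, and SPNCRNA.242 had 104 and 19, 2.05-fold. SPNCRNA.7137, over the small nucleolar RNA gene snR10, was at 2.42-fold. The TR box core also stood in 5 of the 26, or 19.2% beside the 10.4% of all members. TATA box matches stood in 14 of the 26, or 53.8%, close to the 50.6% of all members. The FLEX core stood in 3 (11.5% beside 14.8%) and the CRE in 0 (beside 1.85%). The 26 were picked on Pol II, so these shares only describe them.

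**Figure D3:**
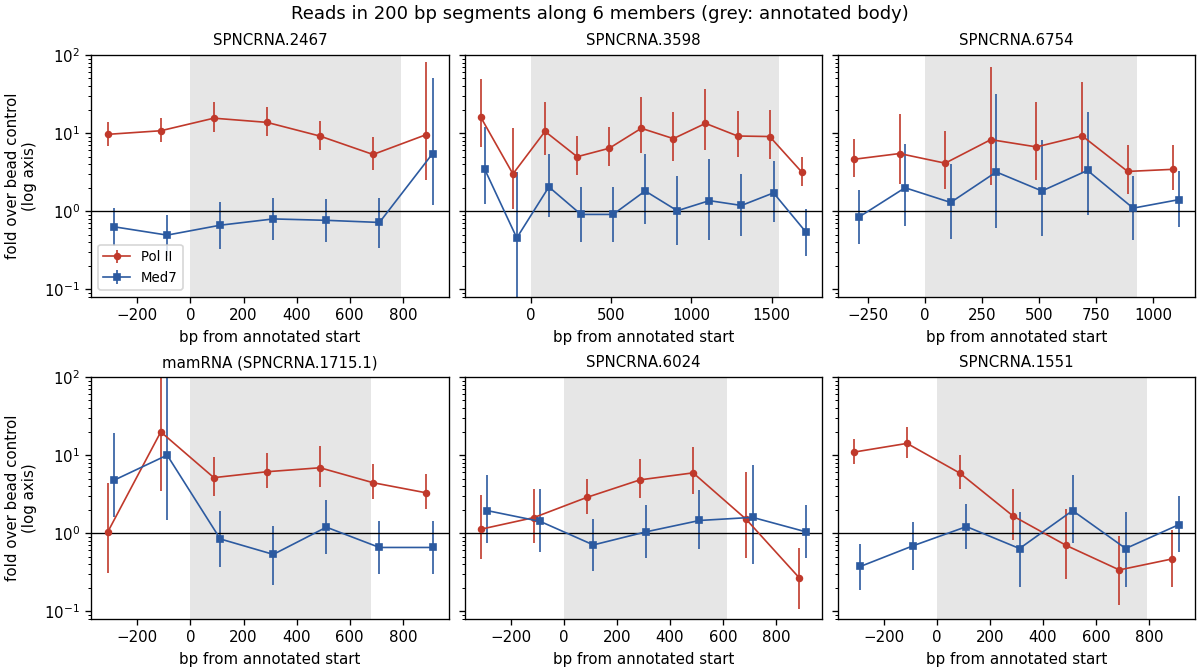
Pol II (circles) and Med7 (squares) fold over bead control in 200 bp segments along 6 members, on a log axis with 95% counting intervals, against distance from the annotated start; grey marks the annotated body. Pol II steps up near the start of mamRNA and stays within the body of SPNCRNA.6024, is already high before the start of SPNCRNA.2467, and falls along SPNCRNA.1551 away from tdh1.

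Where a coding gene ended towards a member within 200 bp, the Pol II folds of the 2 genes went together, with a Spearman rho of 0.48 over 52 members with such a gene before their start and 0.48 over 67 members with one after their end. In the other 10 combinations of side, strand and distance the rho lay between 0.05 and 0.22. These are descriptions over members that share the same libraries. Median log2 Pol II was -0.43 and -0.46 in those 2 classes. Members whose nearest coding transcript was 500 bp away or more had a median of -0.77, with 6 of 243 high and 33.7% low. By length, 2.59% of members under 500 bp were high, 3.57% of those from 500 bp to under 1000 bp and 0.578% of those of 1000 bp or more. Members transcribed away from one coding gene and towards the start of the next on their own strand, the commonest arrangement with 575 members, had a median of -0.77. The 188 between coding genes that both lay on the opposite strand had -0.50, and the 188 with both on their own strand -0.62. The 35 towards which a coding gene ended on each side, at whatever distance, had the lowest median, -0.96, with 5.71% high and 42.9% low. Within 100 kb of a chromosome end, 42.3% of 78 members were low, against 26.5% of 912 elsewhere.

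The 5 lowest Pol II bodies lay between 0.150-fold and 0.220-fold. SPNCRNA.5295 had 12 Pol II, 16 Med7 and 30 control reads, 0.150-fold for Pol II (0.0697 to 0.301). SPNCRNA.7327 had 14 Pol II and 26 control reads, 0.201-fold, and SPNCRNA.6624 had 36 and 66, 0.204-fold. SPNCRNA.4462 (0.219-fold) and SPNCRNA.5915 (0.220-fold) completed the 5. All 5 intervals ended well under 1, and the highest of their upper bounds was 0.509. The control was high in all 5, from 86.9 RPM per kb (SPNCRNA.5915) to 136.0 (SPNCRNA.4462), against 68.7 in the pooled member body. Many control reads lower a fold by construction. Med7 over the 5 ran from 0.483-fold in SPNCRNA.5295, called low, to 1.15-fold in SPNCRNA.7327.

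Of the 37 members that carry a gene name, 35 were measured for Pol II, with 3 high (mrp1 and the 2 mamRNA records, which are 1 locus) and 14 low, where all annotated genes gave 5.62% high and 15.5% low and all measured members 2.63% and 27.8%. ter1, the telomerase RNA gene, had 78 Pol II, 75 Med7 and 72 control reads, 0.405-fold for Pol II (0.290 to 0.566). omt3 had 67 Pol II, 111 Med7 and 81 control reads, 0.309-fold. fbp1-ot3 and fbp1-ot2, transcribed upstream of the gluconeogenic gene fbp1 that glucose represses, were at 0.452-fold and 0.344-fold in this glucose medium, with fbp1 itself at 0.548-fold. ncRNA.1343, which overlaps the phosphate-controlled transcript nc-tgp1, was at 1.34-fold (0.968 to 1.89), nam3 at 1.01-fold (0.793 to 1.31) and aal1 at 0.555-fold. Among the meu members, named for RNAs that rise in meiosis, meu11 was at 0.374-fold, and meu3 and meu19 had too few unique positions. The 24 prl members, of which prl102, prl104, prl105 and prl106 are annotated as Pdc2-repressed lncRNAs and most others as poly(A)-bearing non-coding RNAs, ran from 0.308-fold (prl12) to 1.51-fold (prl58), with 9 low and 0 high. The known lncRNAs sme2, prt, nc-tgp1 and rse1 did not meet the rule for members. At the length limit, the 9 members of 300 to 303 bp had Pol II folds from 0.231 to 1.56, and the measured lncRNA genes of 296 to 299 bp just outside it from 0.399 to 1.42.

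Med7 was higher over intergenic lncRNA bodies than over coding bodies, and close to the level of stretches with no gene. Of 986 measured members, 123 (12.5%) were high and 4 low, where all annotated genes gave 2.27% high and 1.89% low. Coding genes gave 0.504% high and gene-free stretches 19.7%. The median log2 fold was 0.41 in members, -0.11 in coding genes, -0.06 in lncRNA genes over coding transcripts and 0.52 in gene-free stretches. At positions 150 bp or more from coding transcripts the median was 0.40 in members, with 13.3% high. There it was 0.46 in 780 measured lncRNA genes over coding transcripts, with 14.5% high, and 0.49 in gene-free stretches. The pooled member body had 90.9 RPM per kb in Med7 and 68.7 in the control, 1.32-fold (1.30 to 1.34), while the pooled coding body had 79.5 and 87.1. Both libraries thus differed between the sets, Med7 being higher and the control lower over members than over coding bodies.

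Base composition moved with the Med7 values. Members under 28% GC had a median log2 Med7 fold of 0.72 and those of 36% GC or more 0.23, while gene-free stretches gave 0.59 and 0.49 in the same classes. In coding genes the median was 0.29 at 28 to 32% GC (86 genes) and -0.21 at 36% GC or more. Members stayed above coding genes within each of the 3 classes from 28% GC up, at 0.51, 0.34 and 0.23 against 0.29, 0.04 and -0.21. The part of base composition in the Med7 values was not tested.

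**Figure D4:**
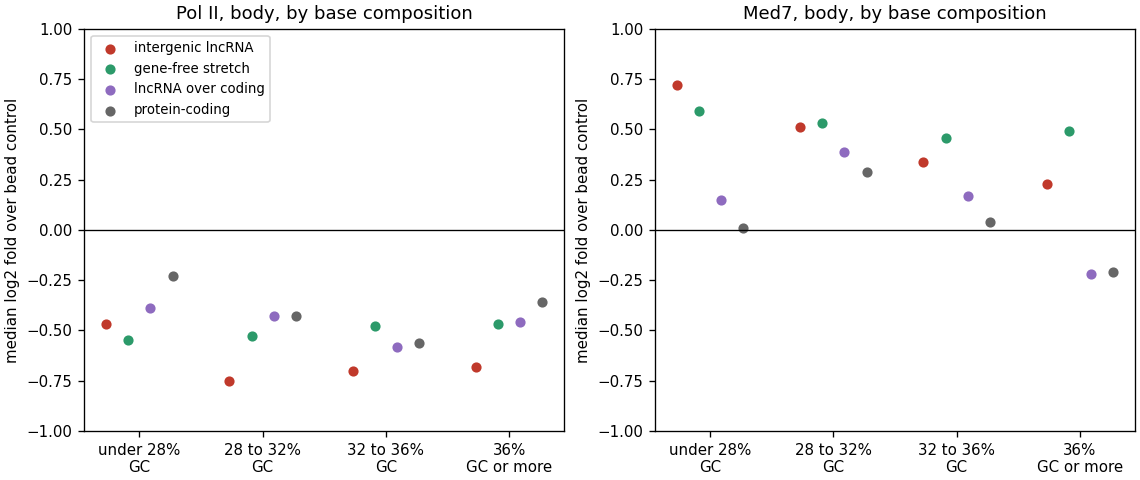
Median log2 fold over bead control of gene bodies in 4 classes of GC content, for Pol II (left) and Med7 (right); points are sets of genes or gene-free stretches, and the class under 28% GC holds only 7 coding genes. For Med7, members lie from 0.72 down to 0.23, near gene-free stretches at low GC and above coding genes in every class.

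The highest Med7 bodies rested on few control reads. SPNCRNA.311 had 20 Pol II, 32 Med7 and 3 control reads, 9.67-fold for Med7 (3.02 to 49.3). SPNCRNA.398 was at 7.25-fold from 24 Med7 and 3 control reads and SPNCRNA.6434 at 6.34-fold from 28 and 4. The overlapping pair SPNCRNA.4566 and SPNCRNA.4565 beside aat1 had more reads, 44 Med7 and 7 control reads in SPNCRNA.4566 (5.70-fold, 2.55 to 15.0) and 54 and 11 in SPNCRNA.4565 (4.45-fold, 2.30 to 9.44). Pol II over this pair was at 1.12-fold and 1.02-fold. These 5 were named for their Med7 body after the values were seen. Of the 123 Med7-high members, 7 were also high for Pol II and 1, SPNCRNA.3868, was low for Pol II. Among all measured members, 2.63% were high and 27.8% low for Pol II. Both folds divide by the same control reads, so few control reads raise both by construction.

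Before the member starts the windows were short, and the read minimum removed many of them, so pooled reads come first. Over the 988 upstream windows with unique positions, RPM per kb were 61.0 for Pol II, 90.8 for Med7 and 61.4 for the control. The pooled fold was 0.992 (0.967 to 1.02) for Pol II and 1.48 (1.44 to 1.52) for Med7, against 0.910 and 1.62 for 4968 coding genes. In the 670 member windows free of coding transcripts Pol II was at 0.788-fold and Med7 at 1.55-fold, and in the 318 that reached into a coding transcript they were at 1.38-fold and 1.35-fold.

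Around the annotated starts the Med7 fold had a summit in the last 100 bp, at 1.61 (1.54 to 1.67) in members and 1.65 (1.62 to 1.68) in coding genes. In members it stayed between 1.24 and 1.41 over the next 500 bp, whereas in coding genes it fell to 0.899 by 400 to 499 bp. The control was lowest in that bin in both sets. In members the mean per gene, in RPM, over the bin before it, the bin itself and the bin after it was 8.86, 9.34 and 9.48 for Med7 and 6.48, 5.81 and 6.73 for the control. In coding genes it was 9.47, 8.98 and 8.52 for Med7 and 5.94, 5.44 and 7.29 for the control. Members whose start was at least 500 bp from coding transcripts had the same summit of the fold, 1.63, with the other bins between 1.25 and 1.45. Over the same 3 bins they had 8.94, 9.53 and 9.55 for Med7 and 6.35, 5.85 and 7.01 for the control. Pol II in those members ran between 0.679-fold and 0.868-fold on both sides of the start, with no step at it.

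**Figure D5:**
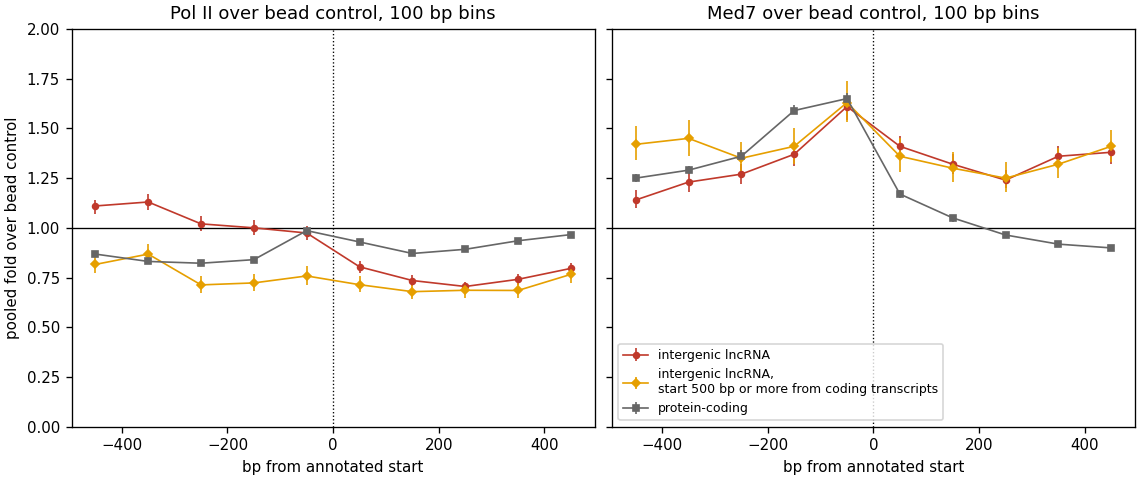
Pooled fold over bead control in 100 bp bins from 500 bp before to 500 bp after annotated starts, with 95% counting intervals, for Pol II (left) and Med7 (right). Just before the start, the Med7 fold has a summit of 1.61 in intergenic lncRNA genes, 1.63 in those starting 500 bp or more from coding transcripts and 1.65 in coding genes. The control is lowest in that bin in each set. Only in coding genes does the Med7 fold fall below 1 in the body.

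Gene by gene, 523 members were measured for Med7 upstream, with 100 (19.1%) high and 7 (1.34%) low. For Pol II 607 were measured, with 69 (11.4%) high and 103 (17.0%) low. All annotated genes gave 16.1% high and 2.3% low for Med7, and 9.04% high and 11.9% low for Pol II. Coding genes gave 24.1% high for Med7 and 6.72% for Pol II, and lncRNA genes over coding transcripts 8.45% and 10.5%. Of the 100 Med7-high windows, 94 had fewer than 10 control reads, and with at least 10 control reads required there were 6 high windows and a median log2 fold of -0.04, against 0.53 before. Such a minimum keeps the windows with many control reads, which lowers the fold by construction, and it moved the Pol II upstream median to -1.08, against -0.37 before. SPNCRNA.4491 had 18 Pol II, 26 Med7 and 1 control read, 23.6-fold for Med7 with an interval from 3.87 to 966.0. SPNCRNA.4571 had 21 Med7 and 1 control read (19.0-fold, 3.06 to 787.0). The other 8 of the 10 highest, SPNCRNA.282, SPNCRNA.437, SPNCRNA.1676, SPNCRNA.2991, SPNCRNA.3468, SPNCRNA.5683, SPNCRNA.6429 and SPNCRNA.7659, lay between 8.61-fold and 9.97-fold with 2 or 3 control reads each. The 5 lowest were SPNCRNA.5525 at 0.227-fold (4 Med7, 16 control reads), prl33 at 0.302-fold, SPNCRNA.2148 at 0.355-fold, and SPNCRNA.756 and SPNCRNA.3875, both at 0.362-fold.

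Mmi1 recognises short repeats in meiotic transcripts whose core is TNAAAC, and member bodies held this core, on the transcribed strand, 2.20 times per kb. Coding bodies held it 1.76 times per kb, lncRNA bodies over coding transcripts 1.95 and gene-free stretches, read on the plus strand, 2.40. The core was absent from 302 members and present up to 12 times in 1 member, and mamRNA held it 3 times. Genes that act in nuclear RNA surveillance, a list of 32 of which 31 were found, had 0 high and 2 low Pol II bodies, rrp4 (0.384-fold) and rrp41 (0.451-fold), both exosome subunits, where all annotated genes gave 5.62% high and 15.5% low. Their median log2 fold was -0.38, against -0.49 over all genes. mmi1 itself had 470 Pol II and 168 control reads, 1.05-fold.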

How the data were processed

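The authors deposited aligned reads, 1 row per read with chromosome, first and last base and strand; these positions are the only values used (unit other: base positions, no signal or score). Bowtie 0.12.7 is listed, without a role, per the submitters' processing notes. The build is not given in the sources used here: no read of 45 bases began at a 45-mer that is repeated in ASM294v3 (0 in each library), against 306 (Pol II), 150 (Med7) and 147 (control) with starts moved by 1 base, so starts were read as 1-based on this assembly and reads as uniquely placed. Reads were counted at their 5' end moved 67 bp, 0.5 of the Pol II strand cross-correlation peak of 135 bp, rounded down, in all libraries. Counting and intervals used numpy 2.4.6 and scipy 1.17.1, tables pandas 2.3.3 and plots matplotlib 3.10.9, all under Python 3.11.15. Log2 folds used a pseudocount of 0.5 reads.

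Duplicate reads made up 17.0% (Pol II), 16.4% (Med7) and 12.9% (control). Median body depth was 25 control reads, so single folds near 2 are imprecise. Each centromere was taken as the widest gap between coding transcripts on its chromosome. The genes named were the 10 highest and 5 lowest called members for Pol II body and for Med7 upstream, all members with a gene name, and those at the length limit. The members and lists were chosen with earlier results of these data known. Alternatives tried were the scaling, duplicates, read shift, minimum reads, unique positions, distance to coding transcripts, overlap, length, thresholds and the upstream window. The fold rule was tested on simulated data. The sequence at the start of 1 further member is not reported here.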

Additional observations from a re-analysis of the deposited data

Results flagged for a closer look

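Mitochondrial reads, which no comparison used, made up 23.8% of the Med7 library, against 7.7% of the Pol II library and 6.8% of the bead control. They were left out of the nuclear totals, so they do not enter the folds. Med7 and the control differ in tag and beads, and the part of these in the mitochondrial share was not tested.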

How the results depend on the processing

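No paired analysis was possible because each group has 1 library. Of the counts and medians over members recomputed under the alternatives, 93 stayed near the main value, 50 moved and 3 changed sign. For Pol II bodies, the median of -0.69 became -0.57 with duplicates collapsed and -0.19 with median-bin scaling. The 26 high became 40 at a 1.5-fold threshold, 64 with median-bin scaling, 15 for members of at least 500 bp and 11 for members overlapping no other gene, where the last 2 counts are 2.65% and 3.44% of smaller sets beside 2.63%. The 275 low became 422, 70, 149 and 90 under those 4 settings, and 183 with duplicates collapsed, and the 149 and 90 are 26.4% and 28.1% beside 27.8%. For Med7 bodies, the 123 high became 227 at 1.5-fold, 55 at 500 bp or more and 37 without overlaps (9.75% and 11.7% of smaller sets beside 12.5%), and the 4 low became 7 at 1.5-fold, 2 with duplicates collapsed, 1 at 500 bp or more and 2 with reads not moved.

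Upstream values moved more. The Med7 median of 0.53 became 0.38 in a 500 bp window, 0.37 with 40 reads and -0.04 with at least 10 control reads (a setting chosen after seeing the data). Its 100 high became 41 with duplicates collapsed, 52 at 500 bp or more, 34 without overlaps, 1 with 40 reads, 161 with no minimum, 57 with the 150 bp nearest coding transcripts left out and 6 with at least 10 control reads. Of the windows measured these were 19.1% at first, 12.2% with duplicates collapsed, 19.4% at 500 bp or more, 19.3% both without overlaps and near coding left out, 16.4% with no minimum and 1.95% with 10 control reads. Its 7 low became 4 in a 500 bp window, 0 with duplicates collapsed, 4 at 500 bp or more, 2 without overlaps, 1 with 40 reads and 1 near coding left out. The Pol II median of -0.37 became -0.50 (500 bp window), -0.19 (duplicates), 0.13 (median-bin scaling), -0.16 (500 bp or more), 1.18 (40 reads), -0.57 (near coding left out) and -1.08 (10 control reads). Its 69 high became 106 with median-bin scaling, 43 at 500 bp or more, 23 without overlaps, 24 near coding left out and 20 with 10 control reads, and at 500 bp or more and without overlaps this was 12.7% and 11.5% beside 11.4%. Its 103 low became 202, 52, 42, 58, 37, 2 and 64 with a 500 bp window, duplicates collapsed, median-bin scaling, 500 bp or more, no overlaps, 40 reads and near coding left out. A 40-read minimum keeps the windows with many ChIP reads, which raises the Pol II median by construction, and a minimum of 10 control reads likewise lowers the upstream medians.

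For single genes, prl33 upstream Med7 was at 1.05-fold with reads not moved and SPNCRNA.3468 at 0.906-fold with near-coding positions left out, so both changed direction. Of the other single-gene values 371 stayed within the counting interval of the value reported and 15 moved out of it, 11 of them by the median-bin scaling. Staying within it does not mean that the call held. Pol II was at 1.28-fold in SPNCRNA.258 and 1.96-fold in SPNCRNA.6108 with near-coding positions left out. It was at 1.81-fold in SPNCRNA.87 and 1.59-fold in SPNCRNA.6434 with reads not moved, and at 1.96-fold in SPNCRNA.242 with duplicates collapsed. Of the 26 Pol II-high members, 24 remained high with duplicates collapsed, 23 with reads not moved and 21 with near-coding positions left out, and all 26 with median-bin scaling, by construction since it raises every Pol II fold.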

Other observations

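The longest runs of letters shared by the printed windows of mamRNA and mrp1 were 10 bases long, and 2 runs tied. They were looked for after the windows were seen. The run GGTTAGGGTT began 52 bases before the start of mamRNA and 70 before that of mrp1. On either strand it stood in 6 of 1083 member windows (0.554%), which include both mamRNA records, and in 33 of 5112 coding windows (0.646%). The other members with this run were SPNCRNA.209, SPNCRNA.5124 and prl102 (SPNCRNA.5748), the last at 0.512-fold for Pol II. The run TATATATACC began 34 bases before the start of mamRNA and 33 before that of mrp1. It stood in 9 member windows (0.831%), again with both mamRNA records among them, and in 32 coding windows (0.626%). SPNCRNA.5124 held both runs. This is a description of the letters and not a site.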
